A study of Homo sapiens with 2 samples.

Results

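Corepressors are proteins that DNA-binding factors bring to genes to turn transcription down. SIN3A and SIN3B are scaffolds that hold the histone deacetylases HDAC1 and HDAC2 together with small subunits such as SAP30 and SAP18, while NCOR1 is a scaffold for HDAC3 and meets unliganded nuclear receptors and other repressors. ANKRD11 is a large ankyrin repeat protein of chromatin that binds p160 nuclear receptor coactivators and recruits deacetylases. THAP7, the neighbour of the silenced gene, is itself known as a repressor that recruits HDAC3 and NCOR1.

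The genes described here are these 9: SIN3A, SIN3B, SAP30, SAP18, HDAC1, HDAC2, NCOR1, HDAC3 and ANKRD11, of 12918 genes in the table. They were taken by name as members of the complexes. As for the lists of other genes below, earlier results of these data were known when they were chosen. ANKRD11 was chosen by its ratio between these same libraries, so its difference is given as a description only. RNA came from MDA-MB-231, a human cell line from a breast cancer without hormone receptors or HER2 amplification, 48 h after transfection. The silenced group (1 library) received a Smart Silencer directed at THAP7-AS1, a noncoding RNA gene, and the control group (1 library) received the negative control si-NC; the cells were otherwise the same line in the same L15 medium with serum. The column headed si-v was assigned to the silencer by elimination, and 0 of 3 annotated THAP7-AS1 transcripts were listed, so neither the silencing nor the direction of any difference could be checked.

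Each value is an FPKM (fragments scaled by transcript length and by library depth), given by the authors per transcript and summed here per gene. About 7830000 and 8320000 fragments lay on the listed transcripts of the control and the si-v library. The log2 ratio is log2 of (si-v + 1) over (control + 1). A log2 ratio of fragments compares shares, the estimated fragments of a gene or transcript over its library's total on the listed transcripts. A 95% counting interval is given for that ratio of shares. With 1 library per group there is no spread between cultures and no test, and the intervals cover counting error only. They leave out error in the division of shared fragments among transcripts. In bulk RNA, fewer cells with a transcript and less transcript per cell cannot be told apart. Markers of the line were present, with VIM at 344 and 373 FPKM and AXL at 259 and 204, while ESR1 was listed at 0 and CDH1 stood at 0.0844 and 0.122. ERBB2, which encodes HER2, stood at 4.65 and 17.4 FPKM; its part in the results was not tested. ALB, a marker of a cell type not expected in this line, stood at 17.0 and 17.7 FPKM in the libraries, and COL1A1 at 0.482 and 1.14.

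The values turn on which transcript of a gene was credited. The bases before the RefSeq starts of SIN3A and ANKRD11 are shown first. They lie outside the annotated exons of these genes, so they do not tell the transcripts apart by fragments. SIN3A (chromosome 15, minus strand) has an upstream and a downstream start in RefSeq, and ANKRD11 (chromosome 16, minus strand) has 1. Below are the bases before these starts, from RefSeq on GRCh38.p14, cropped where annotated exons of the gene begin, with the CCAAT box (CCAAT), the GC box (GGGCGG) and the TATA box (TATAAA) on either strand in capitals.
SIN3A upstream start, chr15:75455843-75456065, minus strand: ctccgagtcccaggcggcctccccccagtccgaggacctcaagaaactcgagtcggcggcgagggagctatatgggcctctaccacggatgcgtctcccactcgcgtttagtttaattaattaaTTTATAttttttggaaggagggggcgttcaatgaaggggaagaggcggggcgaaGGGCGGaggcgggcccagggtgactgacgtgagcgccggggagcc
SIN3A downstream start, chr15:75451747-75451940, minus strand: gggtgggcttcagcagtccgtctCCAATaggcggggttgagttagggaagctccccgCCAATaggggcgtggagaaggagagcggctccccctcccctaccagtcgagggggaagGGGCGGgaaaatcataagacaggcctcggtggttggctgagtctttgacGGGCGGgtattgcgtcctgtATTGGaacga
ANKRD11 start, chr16:89490562-89490811, minus strand: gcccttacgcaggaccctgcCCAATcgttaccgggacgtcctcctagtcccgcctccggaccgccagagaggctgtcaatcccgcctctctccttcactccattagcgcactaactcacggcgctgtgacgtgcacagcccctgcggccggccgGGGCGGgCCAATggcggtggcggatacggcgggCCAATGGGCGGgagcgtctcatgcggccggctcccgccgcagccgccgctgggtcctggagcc

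The upstream SIN3A stretch held 0 CCAAT matches, 1 GGGCGG and 1 TATAAA, and the downstream stretch 3 CCAAT, 2 GGGCGG and 0 TATAAA. The ANKRD11 stretch held 3 CCAAT and 2 GGGCGG, with a pair of them side by side, and no TATAAA. Over 35116 RefSeq windows of 250 bases, CCAAT was in 32.0%, GGGCGG in 42.6% and TATAAA in 10.7%. In the first 223 bases of those windows the shares were 30.1%, 39.3% and 8.2%, and in the first 194 bases 26.5%, 33.8% and 7.5%. GC content was 60.5% and 61.3% in the SIN3A stretches and 70.8% in that of ANKRD11, against a median of 58.0% over the 250-base windows. These matches describe letters and not binding. The table had windows for 8 of the 9 genes.

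In SIN3B the full-length models differ in the protein they encode. The coding bases that 1 of them holds and its partner lacks were read from the GENCODE release 29 transcripts, and make up a whole number of codons.
SIN3B-202, 32 codons absent from SIN3B-201: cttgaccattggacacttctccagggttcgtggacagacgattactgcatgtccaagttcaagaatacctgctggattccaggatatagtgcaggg

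In the si-v library 5 of the 9 genes were higher than in the control and 4 were lower, and 8 differed by less than 1.5-fold. ANKRD11 was past 2-fold and was the only one past 1.5-fold, on the scale of log2(FPKM + 1), where 18.7% of 11046 genes passed 1.5-fold and 4.86% passed 2-fold in either direction. The counting intervals of 2 genes, SIN3B and SAP30, included no difference. The genes lie on chromosomes 15 (SIN3A), 19 (SIN3B), 4 (SAP30), 13 (SAP18), 1 (HDAC1), 6 (HDAC2), 17 (NCOR1), 5 (HDAC3) and 16 (ANKRD11). All 9 passed the filter of 1 FPKM in at least 1 library. Their median log2 ratio was 0.048, or -0.07 without ANKRD11, beside 0.0037 over all genes. HDAC2 had the highest level of the 9 in both libraries. ANKRD11 was the lowest in the control and second to HDAC2 in the si-v library.

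**Figure D1:**
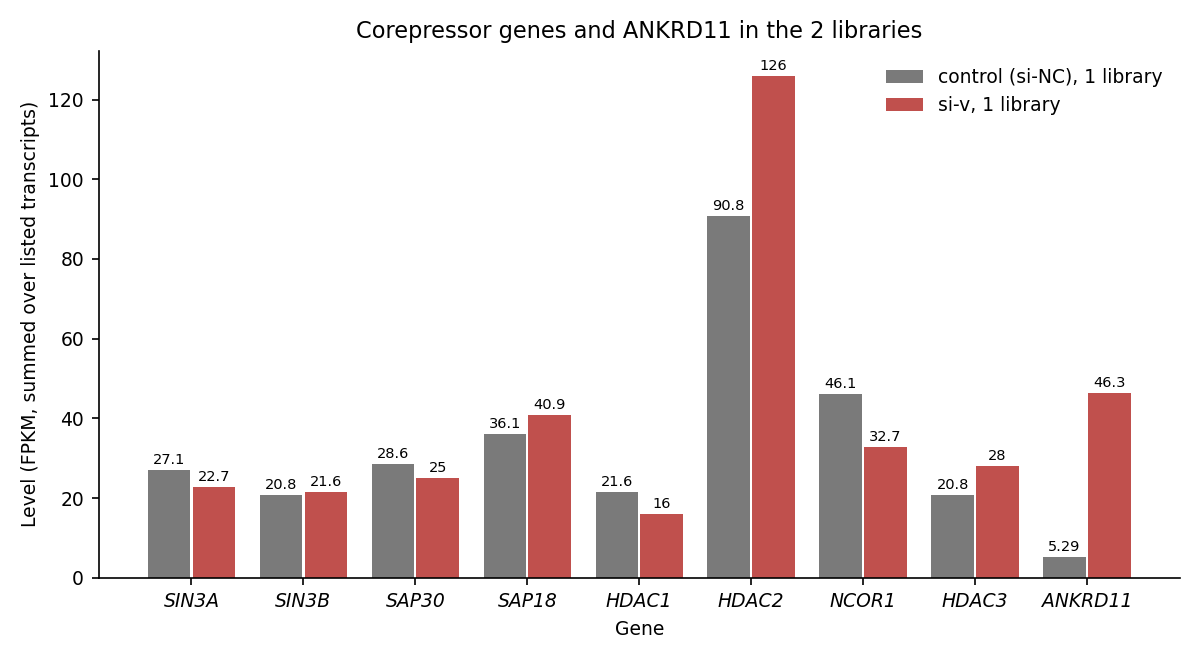
Level of each gene (FPKM summed over its listed transcripts, vertical axis from 0) in the control library (grey) and the si-v library (red), with the value over each bar; 1 library per group, so there are no error bars. ANKRD11 stands at 5.29 and 46.3 FPKM, while the pairs of bars of the other 8 genes differ by less than 1.5-fold.

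**Figure D2:**
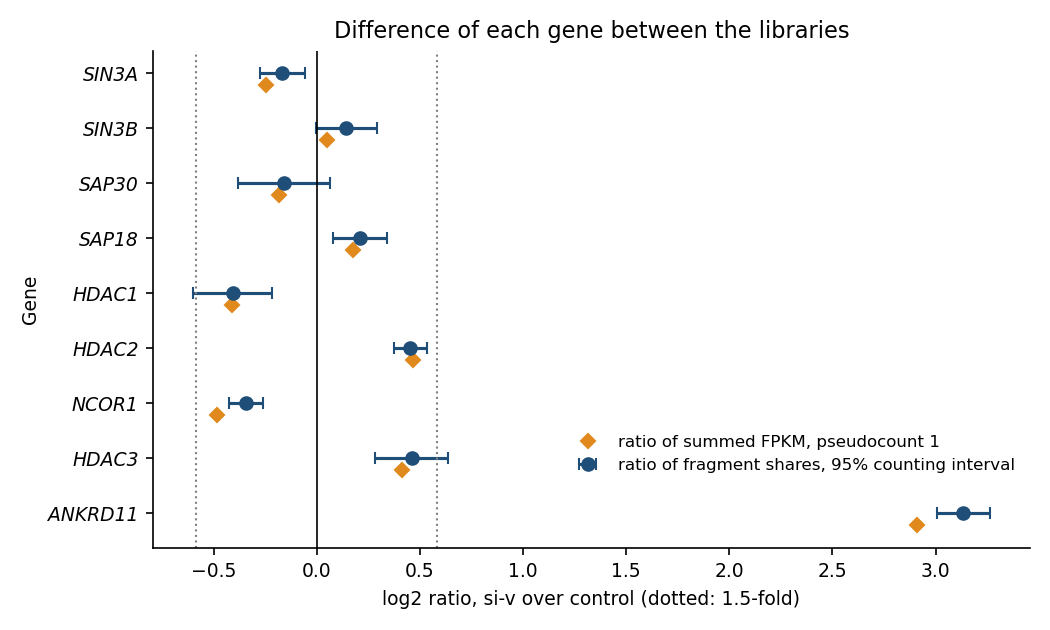
Log2 ratio of the si-v over the control library for each gene. Blue circles are from shares of estimated fragments, with bars for 95% counting intervals. Orange diamonds are from summed FPKM with a pseudocount of 1, and dotted lines mark 1.5-fold. The intervals of SIN3B and SAP30 include 0, and ANKRD11 lies apart at 3.13 and 2.91.

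SIN3A, the first scaffold of the SIN3 complex, stood at 27.1 FPKM in the control against 22.7 in si-v (log2 -0.25). Its fragments numbered about 1433 and 1356, a log2 ratio of shares of -0.17 with a counting interval of -0.27 to -0.06. Behind this small difference the credited transcript was exchanged almost completely. SIN3A-203 stood at 23.7 FPKM in the control and was listed at 0 in the si-v library, and SIN3A-201 was listed at 0 in the control and stood at 21.0 in the si-v library. The most abundant transcript thus held 87.4% of the gene's FPKM in the control against 92.5% in si-v, but it was not the same one. Together the pair stood at 23.7 and 21.0 FPKM, or about 1281 and 1259 fragments. SIN3A-202, the third complete model, stood at 1.93 and 1.15. With the exchanged pair left out, the log2 ratio of SIN3A was -0.71, past 1.5-fold. That ratio rests on a small remainder, mostly SIN3A-202 with about 142 and 92 fragments.

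SIN3A-201 and SIN3A-203 encode the same protein, with identical coding sequences of 3819 bases. Their starts lie 4198 bases apart. SIN3A-201 begins 32 bases after the upstream RefSeq start, and SIN3A-203 begins 105 bases after the downstream one. The bases before each RefSeq start are printed above. SIN3A-201 has 346 exon bases that SIN3A-203 lacks and SIN3A-203 has 226 that SIN3A-201 lacks, none of them coding. Of all 50-base windows of SIN3A-201, 6.90% were absent from SIN3A-203, and 4.61% the other way, so most windows of this gene carry no letters that tell the pair apart. Whether the first exon in use or the division of shared fragments changed was not tested.

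SIN3B, the paralog scaffold, was level at 20.8 FPKM in the control against 21.6 in si-v (log2 0.048, or -0.015 with libraries scaled to the sum without mitochondrial genes and -0.23 with the most abundant transcript). Its counting interval of -0.01 to 0.29 included no difference. SIN3B-209, a short model with 1059 coding bases, was the most abundant in both libraries at 10.6 and 8.89 FPKM. SIN3B-206, which begins 33874 bases downstream of the first start, stood at 6.98 and 8.30. SIN3B-201, which encodes a full-length form, stood at 3.29 and 1.51, while SIN3B-202, which adds the 32 codons printed above, was listed at 0 in the control and stood at 2.88 in the si-v library. That pair summed to 3.29 and 4.39 FPKM. The ratio of SIN3A to SIN3B was 1.30 in the control against 1.05 in si-v.

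The small SIN3 subunits were close in level. SAP30, a zinc finger subunit that bridges SIN3 and the deacetylases, has a single listed transcript and stood at 28.6 and 25.0 FPKM (log2 -0.18). Its counting interval of -0.38 to 0.06 included no difference. SAP18, a ubiquitin-fold subunit that also belongs to a splicing-associated complex, stood at 36.1 and 40.9 FPKM (log2 0.18; counting interval 0.08 to 0.34). Its main transcripts leaned in opposite directions: SAP18-207 stood at 23.8 and 30.3 FPKM, and SAP18-208 at 11.1 and 9.73. SAP18-207 had 66.1% of the gene's FPKM in the control against 74.0% in si-v. No 50-base window of SAP18-207 was its own among the listed transcripts of the gene, and 2 windows of SAP18-208 were.

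The class I deacetylases differed in direction. HDAC1, a catalytic subunit shared by the SIN3, NuRD and CoREST complexes, stood at 21.6 FPKM in the control against 16.0 in si-v (log2 -0.41; about 503 and 403 fragments; counting interval -0.60 to -0.21). HDAC2, its close paralog in the same complexes, stood at 90.8 and 126 FPKM (log2 0.47; about 2123 and 3089 fragments; counting interval 0.37 to 0.53). HDAC2 therefore exceeded HDAC1 by 4.21 times in the control against 7.89 times in si-v on the FPKM scale. Their summed level was 112 and 142 FPKM. HDAC1 and HDAC3 are each read from a single listed transcript, so no division among listed transcripts enters their values.

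Within HDAC2, HDAC2-206 was the most abundant in both libraries at 88.4 and 109 FPKM. HDAC2-201 was listed at 0 in the control and stood at 15.6 in the si-v library. It shares the coding sequence of 1374 bases with HDAC2-206, starts 433 bases upstream of it, and carried 12.4% of the gene's FPKM in the si-v library. The pair summed to 88.4 and 125 FPKM, or about 1940 and 2984 fragments. HDAC2-205, the longest model, stood at 1.65 and 0.884 FPKM.

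HDAC3, the catalytic subunit of the NCOR complex, stood at 20.8 FPKM in the control against 28.0 in si-v (log2 0.41; about 447 and 653 fragments; counting interval 0.28 to 0.64). NCOR1, the scaffold that activates it, stood at 46.1 and 32.7 FPKM (log2 -0.48). On fragments, about 2564 and 2148, its log2 ratio was -0.34 with a counting interval of -0.43 to -0.26. Scaffold and enzyme thus lay in opposite directions. The difference of NCOR1 was spread over its models, with 9 of 11 listed transcripts lower. The 3 complete models summed to 20.6 and 15.3 FPKM (log2 -0.40), and the 8 models with a missing end to 25.6 and 17.4 (log2 -0.53). NCOR1-201, the longest, stood at 12.4 and 10.1 FPKM and NCOR1-204 at 5.99 and 5.04. NCOR1-202, a short model with 2742 coding bases, went furthest, at 2.19 and 0.195, or about 74 and 7 fragments. NCOR1-206 and NCOR1-221 had no 50-base window of their own. In NCOR1-209, 5.89% of windows also occurred in transcripts of 13 other genes. In NCOR1-201, NCOR1-202, NCOR1-204, NCOR1-206 and NCOR1-221, 0.834% to 4.87% of windows also occurred in transcripts of other genes, among them the pseudogenes NCOR1P1 and NCOR1P2.

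ANKRD11 stood at 5.29 FPKM in the control against 46.3 in si-v (log2 2.91, 7.52-fold on that scale). It had about 541 and 5040 fragments, a log2 ratio of shares of 3.13 with a counting interval of 3.004 to 3.26. The whole difference was credited to 1 transcript. ANKRD11-201 was level at 5.28 and 5.22 FPKM, and ANKRD11-203 stood at 0.0099 and 41.1, or about 1 and 4463 fragments. Read on fragments, the log2 ratio of ANKRD11-203 was 12.0 with a counting interval of 9.56 to 17.3. That interval leaves out how fragments that match both models were divided between them. Without transcripts that were under 0.1 FPKM in 1 library and over 20 in the other, the log2 ratio of ANKRD11 was -0.016. That rule removes ANKRD11-203 for its difference between these same libraries, so the value is that of ANKRD11-201 by construction.

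Both ANKRD11 models encode the same protein from identical coding sequences of 7989 bases. They share 9060 exon bases, 99.2% of ANKRD11-203, whose start lies 241 bases downstream of that of ANKRD11-201. The stretch printed above lies before the start of ANKRD11-201. Whether both starts share a promoter was not tested. ANKRD11-203 has 71 exon bases of its own, none coding, and 120 of its 9082 windows of 50 bases were absent from ANKRD11-201. ANKRD11-201 has 252 exon bases and 301 windows of its own. Only 2 of 19 annotated coding transcripts of ANKRD11 were listed, the lowest share of the 9 genes. Of the windows of ANKRD11-203, 8.37% also occurred in transcripts of AC105342.1 or Z97180.1, and 647 of the gene's 9383 listed exon bases (6.90%) overlapped AC137932.3 on the opposite strand. The part of these overlaps in the difference was not tested.

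ANKRD12, the closest relative of ANKRD11, gave opposite signs on the 2 scales. It stood at 9.77 and 14.3 FPKM (log2 0.51), but at about 578 and 376 fragments (log2 ratio of shares -0.71, counting interval -0.90 to -0.52). The long models ANKRD12-201 and ANKRD12-203 were lower, at 2.75 and 0.977 and at 2.03 and 1.49 FPKM. The short models ANKRD12-205 and ANKRD12-206 were higher, at 2.06 and 4.07 and at 2.94 and 7.79.

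**Figure D3:**
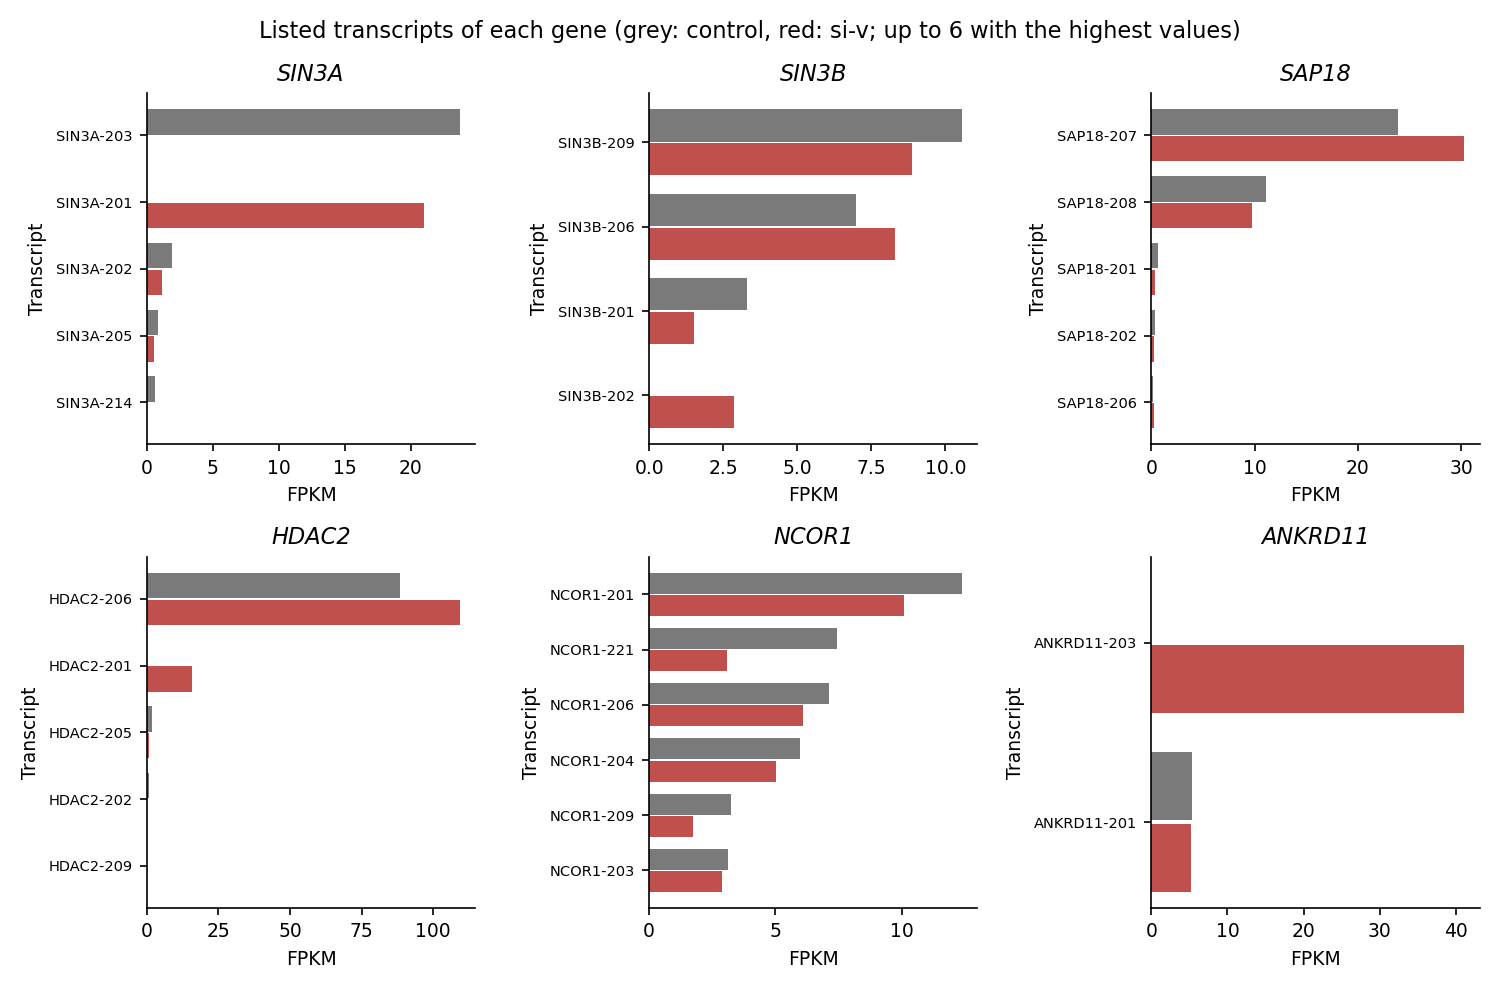
Listed transcripts of the 6 genes with more than 1, in FPKM on horizontal axes from 0 with a different range in each panel, in the control (grey) and the si-v library (red), 1 library each and up to 6 transcripts per gene. SIN3A-203 at 23.7 and SIN3A-201 at 21.0 FPKM each appear in a single library, as do HDAC2-201 and SIN3B-202, and ANKRD11-203 reaches 41.1 in the si-v library.

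At the level of transcripts, 26 of the 35 listed for the 9 genes reached 1 FPKM in a library, and 7 of them differed by 2-fold or more, where 22.1% of 24899 transcripts did. The 4 higher were SIN3A-201, SIN3B-202, HDAC2-201 and ANKRD11-203 (background 11.7%). The 3 lower were SIN3A-203, NCOR1-202 and NCOR1-221 (background 10.4%). All of these but NCOR1-221 reached 1 FPKM in 1 library only. The filter thus admitted those through the library where they were higher, as it could in the background. The most abundant transcript differed between the libraries in 2 of the 6 genes with several listed, SIN3A and ANKRD11, where this held for 26.4% of 8454 genes. In SIN3A the credit lay with different transcripts in the 2 libraries. In ANKRD11 a transcript was credited in si-v beside another whose credited value was level. Whether the transcripts or only the division of shared fragments differed was not tested. Transcripts credited almost wholly in 1 library, as in both genes, were rarer in the table. Of the 3395 transcripts over 20 FPKM in 1 library, 2.03% were under 0.1 in the other. They lay in 64 genes, 2.38% of the 2684 genes with a transcript over 20 FPKM. Of those 64 genes, 45 differed by less than 1.5-fold in their summed level, as SIN3A did, and 11 by 2-fold or more, as ANKRD11 did. As SIN3A and ANKRD11 were seen in these libraries before the counts were made, the counts only place them.

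The other genes of these complexes and their counterparts were listed for 93 of 96 symbols, and 91 passed the filter. At 1.5-fold, 6 were higher and 5 lower, 12.1% of the 91 beside the 18.7% of all genes. Their median log2 ratio was -0.05.

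In the NCOR complex list, GPS2, a small subunit that inhibits JNK signalling, stood at 48.0 FPKM in the control against 99.3 in si-v (log2 1.03). The log2 ratio of GPS2 was 0.97 with libraries scaled to the sum without mitochondrial genes. It was 0.80 once a trend on GC content and length was taken out, and both lie under 2-fold. TBL1XR1, the WD40 subunit that exchanges corepressors for coactivators, stood at 24.0 and 8.81 FPKM (log2 -1.35; counting interval on fragments -1.59 to -1.25). Most of the latter lay in the transcript TBL1XR1-214, at 22.9 and 8.41. CORO2A stood at 9.49 and 6.01 (log2 -0.58) and KDM4A at 9.98 and 11.9 (log2 0.23). Of 7 measured genes of this list, 1 was higher and 1 lower at 1.5-fold.

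Among 18 other SIN3 complex genes 1 was higher and 1 lower at 1.5-fold, with a median of -0.18. BRMS1, a subunit known as a metastasis suppressor in breast cancer lines including this one, stood at 26.2 and 40.5 FPKM (log2 0.61, but 0.54 with libraries scaled to the sum without mitochondrial genes and 0.39 once a trend on GC content and length was taken out, both under 1.5-fold). SINHCAF, a subunit of SIN3A complexes, stood at 10.3 and 5.90 (log2 -0.71). RBBP4 stood at 17.5 and 25.5 (log2 0.52, but -0.13 with the most abundant transcript) and its paralog RBBP7, both histone-binding WD40 proteins, at 73.7 and 58.7 FPKM. ARID4A and ARID4B, paralogous DNA-binding subunits, lay together at 20.1 and 15.9 and at 20.05 and 16.5. FOXK2, a forkhead factor that recruits SIN3A, stood at 23.5 and 17.1 (log2 -0.44).

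In the NuRD list, which joins HDAC1 and HDAC2 to a nucleosome remodeller, 2 of 10 genes were higher and none lower at 1.5-fold, with a median of 0.23. GATAD2A, a bridging subunit, stood at 40.2 and 73.2 FPKM (log2 0.85, or 0.64 on fragments per gene). Its short model GATAD2A-210, of 729 bases, stood at 15.8 and 34.0, and the long GATAD2A-202 at 9.45 and 11.3. MBD3 stood at 25.1 and 38.5 FPKM (log2 0.59). The log2 ratio of MBD3 was 0.53 with libraries scaled to the sum without mitochondrial genes. It was 0.29 once the GC content and length trend was taken out, and both lie under 1.5-fold. GATAD2B, the paralog of GATAD2A, stood at 9.88 and 7.47 (log2 -0.36), and MTA2 at 43.4 and 39.5 (log2 -0.13). In the CoREST and MiDAC list 2 of 13 were lower and none higher. ZMYM2 stood at 9.59 and 4.31 FPKM (log2 -0.996, but -0.35 and under 1.5-fold on fragments), as ZMYM2-202 was at 7.88 in the control and listed at 0 in the si-v library while ZMYM2-210 was at 1.71 and 4.31. TRERF1 stood at 20.9 and 13.2 (log2 -0.62). At the other end of the list were MIER2 at 6.65 and 10.1 (log2 0.54, but 0.18 with the most abundant transcript) and DNTTIP1, a scaffold of MiDAC, at 45.1 and 55.4 (log2 0.29).

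Of 14 other deacetylases and sirtuins, 2 were higher and none lower at 1.5-fold, with a median of 0.26. HDAC11, the class IV enzyme, stood at 1.92 and 4.99 FPKM (log2 1.03), on about 52 and 145 fragments. The log2 ratio of HDAC11 was 0.99 with libraries scaled to the sum without mitochondrial genes. It was 0.83 once the GC content and length trend was taken out. HDAC9, of class IIa, stood at 7.02 and 11.5 (log2 0.64, but 0.583 and under 1.5-fold with libraries scaled to the sum without mitochondrial genes, and 2.44 with the most abundant transcript). HDAC10 stood at 1.84 and 1.32 and SIRT1 at 11.6 and 9.23 FPKM. None of 16 recruiting factors reached 1.5-fold on the scale of log2(FPKM + 1), but some did under alternatives. On fragments per gene MXI1 was at -0.79 and MXD4 at 0.635. Once the GC content and length trend was taken out, MXD3 was at -0.84 and YY1 at -0.65. With the most abundant transcript RBPJ, at -0.11 in sum, was at -4.28, MXD3 at -2.20 and MLX at -0.63. MXD4 and YY1 also passed as TPM and with pseudocounts of 0.1 and 0.5. YY1 passed as well with libraries scaled to the sum without mitochondrial genes, at -0.64. MXD4 of the MAD family stood at 2.70 and 4.47 (log2 0.56), the zinc finger repressor ZBTB7A at 19.0 and 27.7 (log2 0.52), and BCL6, a repressor that binds NCOR1, at 11.3 and 7.59 (log2 -0.52). YY1 stood at 24.6 and 16.1 FPKM (log2 -0.58), but at about 1163 and 1255 fragments (log2 ratio of shares 0.023). THAP7 stood at 1.501 and 1.601 FPKM, on about 19 and 22 fragments with a wide counting interval of -0.83 to 1.09.

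The enzymes and coactivators that oppose corepressors were close as well, with 1 of 12 lower at 1.5-fold and a median of -0.08. KAT2B, the acetyltransferase PCAF, stood at 9.002 and 5.52 FPKM (log2 -0.62, but -0.51 and under 1.5-fold once the GC content and length trend was taken out), and its paralog KAT2A at 10.3 and 14.4 (log2 0.45). NCOA1, a p160 coactivator of the kind ANKRD11 binds, stood at 6.57 and 4.80 FPKM (log2 -0.38, but 0.49 with the most abundant transcript), and KAT7 at 9.30 and 10.9 (log2 0.20).

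**Figure D4:**
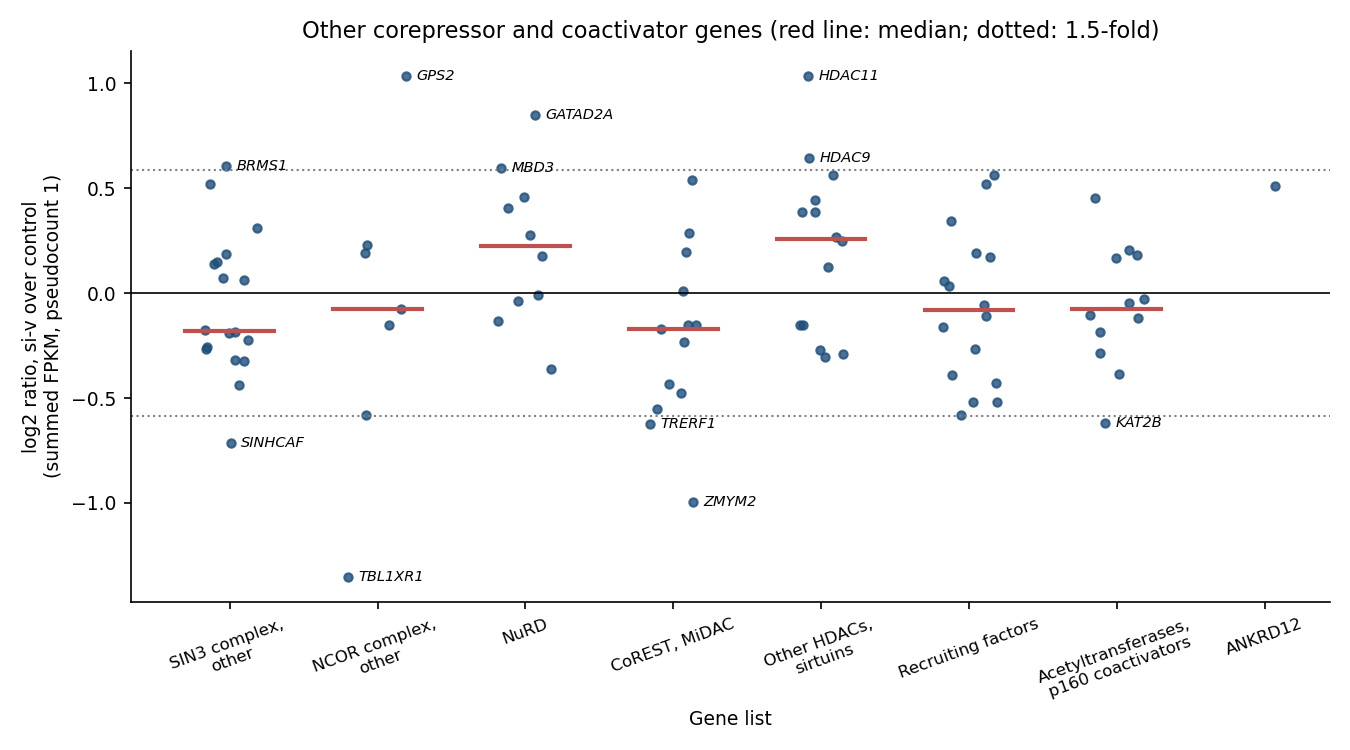
Log2 ratio of the si-v over the control library for 91 other corepressor and coactivator genes (points, vertical axis) by gene list (horizontal axis), from summed FPKM with a pseudocount of 1; red lines are list medians and dotted lines mark 1.5-fold. The named genes lie past 1.5-fold, from TBL1XR1 at -1.35 to HDAC11 at 1.03, and the medians of the 7 lists with more than 1 gene lie between -0.18 and 0.26; ANKRD12, shown alone, lies at 0.51.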

How the data were processed

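RNA-seq of 1 control and 1 silencer library was analysed. Per the submitters' processing notes, cutadapt, HISAT2 2.0.5, StringTie and hg19 were used; roles, settings, strand and annotation release are, in the sources used here, not given. The authors deposited 1 value per transcript and library, read here as FPKM, since the header names no unit and the columns sum to 301790 and 298813. Transcript IDs were matched without version to GENCODE release 29 (99.5% of 39605), which is on GRCh38 and served for names, lengths and transcript structure; sequences before gene starts are from RefSeq on GRCh38.p14.

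FPKM was summed per gene, with a filter of 1 FPKM in at least 1 library and a pseudocount of 1. Fragments were estimated from the peak of FPKM times length at low values (91.2 and 84.1 per fragment). Ratios of fragments were scaled by each library's total on the listed transcripts, and intervals are exact Clopper-Pearson at 95%. Named genes were the 9 members, ANKRD12, and the 2 highest, the 2 lowest and all past 2-fold of each list. The 5 highest transcripts among those over 20 FPKM in 1 library and under 0.1 in the other were also named. ARID4A, ARID4B, RBBP7, THAP7, MXI1 and MXD3 were added after their values were seen. Members and lists were chosen with earlier results of these data known. Alternatives were other pseudocounts, filters and scalings, the most abundant transcript and fragments per gene. The removal of such transcripts and of the GC content and length trend were added after the data were seen. The fold calls per gene were tested on simulated data. The simulation held no variation between cultures and no division of fragments among transcripts. Python 3.11.15, pandas 2.3.3, numpy 2.4.6 and scipy 1.17.1 were used.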

Additional observations from a re-analysis of the deposited data

How the results depend on the processing

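No paired analysis was possible because each group has 1 library. Under the 9 planned and 2 added alternatives, each gene other than SIN3B and ANKRD11 kept its direction. SIN3B, at 0.048, was below 0 in 3 of them. ANKRD11 stayed past 2-fold except without transcripts under 0.1 FPKM in 1 library and over 20 in the other. There it was at -0.0155 and 0 of the 9 genes passed 2-fold. SIN3A, at -0.71 on a small remainder of its fragments, was the 1 gene past 1.5-fold there. That alternative removes transcripts for their difference between these libraries, so it is no check on ANKRD11 or SIN3A. With the most abundant transcript only, 2 of the 9 genes passed 1.5-fold and 2 passed 2-fold (SIN3A at -4.63 and ANKRD11 at 5.38), and the median of the 9 was -0.18. Once a trend on GC content and length was taken out, HDAC2 joined ANKRD11 past 1.5-fold (2 genes) at 0.59, and the median was -0.0934. Of the other corepressor genes 11 passed 1.5-fold, but 17 with a pseudocount of 0.1, 17 as TPM and 23 with the most abundant transcript. Over all genes 262 were 2-fold higher and 275 lower, against 486 and 473 with a pseudocount of 0.1, 535 and 467 as TPM, and 683 and 706 with the most abundant transcript. The cause of these differences was not tested. Scaling to the sum without mitochondrial genes moved the median of all genes to -0.055. Depth limits the low models most: SIN3A-205 rests on about 6 and 4 fragments.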

Other observations

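Transcripts that stood over 20 FPKM in 1 library and under 0.1 in the other numbered 69 in the table, 34 of them present in si-v and 35 in the control. Those with the highest values were TXNRD1-212, of the thioredoxin reductase gene, at 257 FPKM in the control against 0 in si-v, and P4HB-203, of a protein disulfide isomerase gene, at 0 and 159. ACTN1-204, of the alpha-actinin gene, was at 0 and 99.2, EIF4G1-221, of a translation initiation scaffold, at 90.1 and 0, and DNMT1-215, of the maintenance DNA methyltransferase gene, at 0.0932 and 61.8. The summed level of ACTN1 was 293 and 302 FPKM and that of EIF4G1 335 and 341 (log2 0.045 and 0.028), while P4HB stood at 62.1 and 209 in sum and TXNRD1 at 335 and 229. ANKRD11-203 had the 14th highest value among these transcripts.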
